A study of Homo sapiens with 30 samples.

Results

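ERRFI1 and DUSP5 encode inhibitors of the pathway that runs from the epidermal growth factor receptor (EGFR) to the kinase ERK. They are 2 of 22542 gene names in the deposited tables, and both were among the 8531 genes tested, those at 1 FPKM or above in 3 libraries or more. Each name stood on 1 row. They were chosen by their levels 2 h after smoke exposure, which were far above control in earlier results from these libraries. Their own levels are therefore given as a description, with no test.

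The cells were BEAS-2B, an immortalised human bronchial epithelial line, and the study asked how smoke from a hookah (water pipe) alters their transcripts. They were exposed for 30 min on a rocker. After exposure, RNA was taken at 2 h or at 24 h from 3 wells per group, which gave 10 groups and 30 libraries. The exposures were charcoal burnt with no shisha (charcoal wells), charcoal under herbal shisha without tobacco (herbal wells), charcoal under tobacco shisha (tobacco wells), and tobacco shisha on an electronic heater (heater wells). Control wells belonged to a group labelled internal control, and what they received is not given in the sources used here. Each exposure was given at the highest concentration that released no lactate dehydrogenase, a sign of cell damage, at 24 h. The concentrations therefore need not match between exposures. Nothing states that the 3 wells came from separate cultures, so p-values measure only the spread between these wells, which may be technical.

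When a ligand binds EGFR, the receptor activates RAS and then a chain of kinases that ends in ERK, which enters the nucleus and switches on transcription. Some of the genes it switches on encode brakes on the same chain. ERRFI1, also called MIG6, binds the kinase domain of active EGFR and its relatives and blocks it, while DUSP5 is a nuclear phosphatase that removes the activating phosphates from ERK. In airway epithelium EGFR signalling is known for its part in wound closure and mucus production.

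Values are FPKM, fragment numbers scaled by transcript length and by library size, so levels of different genes can be set side by side per length. Sums of FPKM per library ran from 199985 to 220259, between 7598 and 7944 genes per library reached 1 FPKM, and wells of a group correlated at 0.984 to 0.992. The keratins KRT8, KRT18 and KRT19 were expressed (medians of 534, 310 and 50.0 FPKM), while CDH1 and EPCAM, defining genes of epithelium, stayed at or below 0.156 and 0.895 FPKM in every library. Of the fibroblast genes COL1A1, COL1A2 and THY1 were also expressed, with medians of 129.6, 19.98 and 132 FPKM, while LUM reached at most 0.531 FPKM and DCN was listed at 0 throughout. The immune genes PTPRC and LYZ reached at most 0.022 and 0.0599 FPKM and CD3E was listed at 0, while CD68, a lysosomal gene high in macrophages, was at 6.91 to 18.0 FPKM.

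ERRFI1 (NM_018948) lies at chr1:8011727-8026309 on the minus strand of GRCh38, in 4 exons, and no other RefSeq gene overlaps it. The 250 bases before its transcription start, chr1:8026310-8026559 on the minus strand, are shown because a promoter table held them for 1 of the 2 genes (RefSeq, GRCh38.p14). Capitals mark a CCAAT box read on the opposite strand (ATTGG, from position -90), a GC box (GGGCGG, from -70) and 2 overlapping copies of TATATA, from -31 and from -29.
ERRFI1 promoter: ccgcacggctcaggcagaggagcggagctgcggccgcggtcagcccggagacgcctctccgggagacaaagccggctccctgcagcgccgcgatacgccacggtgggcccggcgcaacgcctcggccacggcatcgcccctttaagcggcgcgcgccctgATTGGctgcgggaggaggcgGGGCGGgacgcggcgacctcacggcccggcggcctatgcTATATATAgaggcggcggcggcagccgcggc
These 3 motifs were picked after the sequence was read. Searched on both strands, TATATA occurred in 4.6% of 27305 genes' promoter windows, CCAAT in 37% and GGGCGG in 46.2%. The window was 75.2% G and C, against a median of 58% over all promoters in the table. No match was found for the AP-1 motif TGANTCA, the CRE motif TGACGTCA, the EGR motif GCGNGGGCG, the ETS motif CCGGAAG or the CArG box, motifs present in 8.06%, 2.03%, 10.1%, 10.2% and 1.44% of genes. That says only that these letters are not in this window. The 3′ untranslated region of ERRFI1 (1491 bases, GENCODE 29) held 5 copies of ATTTA, the core of elements that mark unstable messages, or 3.35 per kb, and 77.2% of 17408 genes had fewer per kb.

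DUSP5 (NM_004419) lies at chr10:110497907-110511533 on the plus strand, also in 4 exons, with no overlapping RefSeq gene. Its 3′ untranslated region (1118 bases) held 0 copies of ATTTA, against a median over genes of 1.59 per kb. The stretch shown encodes the catalytic signature that makes these proteins phosphatases, a histidine and a cysteine, 5 further residues and an arginine. It is set beside the same stretch of 3 relatives whose levels appear below, to show how far the coding sequences differ. Capitals mark the codon of the catalytic cysteine.
DUSP5: cacTGTgaggctgggatctcccgt
DUSP1: cacTGCcaggcaggcatttcccgg
DUSP6: catTGCttggctggcattagccgc
DUSP7: cacTGCctggcaggcatcagccgc
The DUSP5 stretch is chr10:110510055-110510078 on the plus strand, in exon 4 of 4. The others are read from the minus strand at chr5:172769074-172769097 (DUSP1), chr12:89349503-89349526 (DUSP6) and chr3:52051064-52051087 (DUSP7), all from GENCODE 29 on GRCh38. Of the 24 bases, 18 are the same in DUSP1 as in DUSP5, 15 in DUSP6 and 16 in DUSP7. Over the whole transcripts, 0 of 2508 stretches of 50 bases in DUSP5 and 0 of 3055 in ERRFI1 occur in a transcript of another gene, the DUSP5 pseudogene included, so exact reads of 50 bases belong to 1 gene.

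At 2 h both brakes stood far above control after every exposure. ERRFI1 was at 130.1, 123 and 113.5 FPKM in charcoal wells, 140.4, 145 and 135 FPKM in herbal wells, 98.7, 114 and 124 FPKM in tobacco wells, and 100.6, 48.8 and 38.4 FPKM in heater wells, against 12.5, 13.6 and 13.6 FPKM in control wells. No exposed well overlapped a control well. The herbal wells were all above the charcoal wells, and the heater wells were the most uneven, with well 1 at the level of the tobacco wells and wells 2 and 3 far below it. In bulk samples such as these, a change in the share of cells that express a gene and a change in RNA per cell cannot be told apart.

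Against control at 2 h, the log2 change of ERRFI1 on the log2(FPKM + 1) scale was 3.12 after charcoal alone, 3.31 after herbal shisha, 2.99 after tobacco shisha on charcoal and 2.04 on the heater (SE 0.26 each). The SE comes from a fit over all 30 libraries, so it is pooled over groups and understates the spread of the heater wells. As ratios of mean FPKM these are 9.25, 10.6, 8.495 and 4.74. Without heater well 1 the heater value was 1.64. By size of rise among the 8531 tested genes, ERRFI1 ranked 3 after charcoal alone, 10 after herbal shisha, 13 after tobacco shisha on charcoal and 39 on the heater.

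DUSP5 had 48.65, 45.05 and 41.4 FPKM in charcoal wells, 67.3, 68.8 and 67.8 FPKM in herbal wells, 71.5, 58.7 and 71.4 FPKM in tobacco wells, and 113.7, 101.1 and 76.0 FPKM in heater wells at 2 h, against 5.37, 5.88 and 6.11 FPKM in control wells. Unlike in ERRFI1, the heater wells were above all other wells, and the charcoal wells were the lowest of the exposed. The log2 changes were 2.76, 3.35, 3.33 and 3.83 in the same order of exposures (SE 0.21 each), and the ratios of mean FPKM 7.78, 11.75, 11.6 and 16.75. Its ranks were 7, 8, 7 and 10. All 3 wells lay above all 3 control wells for both genes in each exposure, which held at 2 h for 13.7% of tested genes after charcoal alone, 18.6% after herbal shisha, 14.9% after tobacco shisha on charcoal and 16.2% on the heater. Since this contrast led to the choice of the genes, nothing is read from it.

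**Figure D1:**
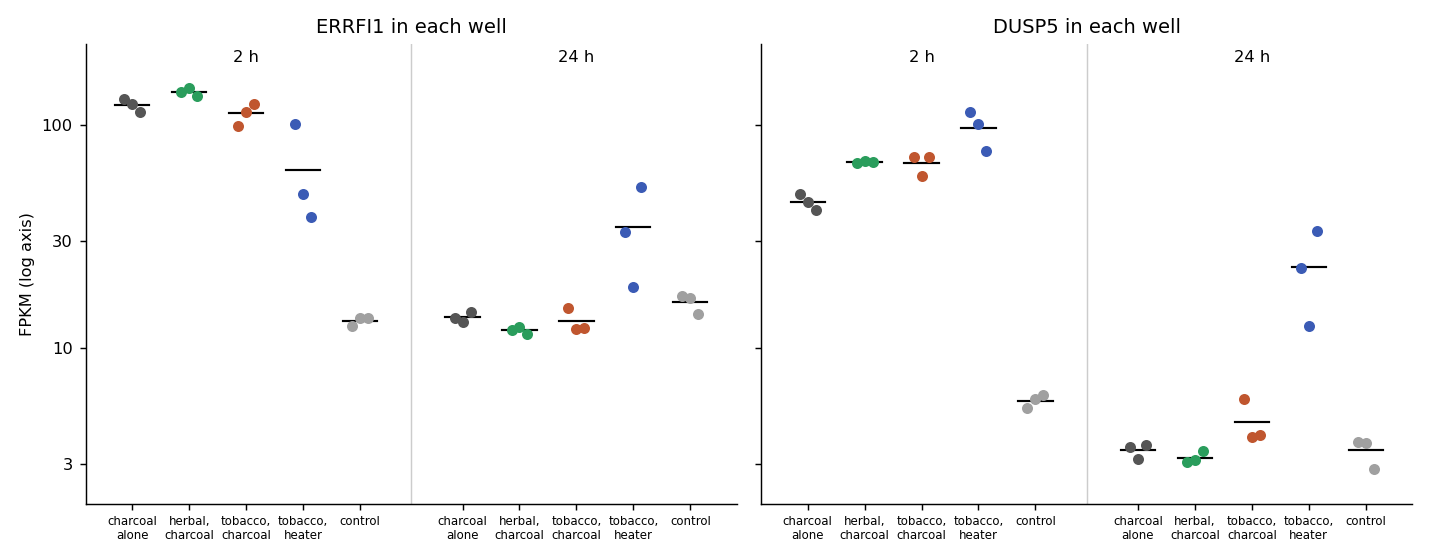
ERRFI1 (left) and DUSP5 (right) in FPKM on a log axis, with 1 point per well, a bar at the mean of 3 wells, and the exposures left of their control at 2 h and at 24 h. At 2 h every exposed well lies above the control wells, while at 24 h only the heater wells stand clearly higher in both genes.

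At 24 h the levels of charcoal, herbal and tobacco wells were close to control, while the heater wells still stood above it. ERRFI1 was at 33.0, 18.8 and 52.45 FPKM in heater wells, against 17.05, 16.7 and 14.1 FPKM in control wells. DUSP5 was at 22.7, 12.5 and 33.5 FPKM in heater wells, against 3.78, 3.75 and 2.86 FPKM in control wells. Heater wells and control wells did not overlap in either gene, a pattern that 36.5% of tested genes showed in this direction. Well 3 was the highest and well 2 the lowest of the heater wells in both genes, and in ERRFI1 well 2 lay only just above the controls.

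The log2 change on the heater at 24 h was 0.96 for ERRFI1 (SE 0.26) and 2.32 for DUSP5 (SE 0.21), or 2.17 and 6.61 as ratios of mean FPKM. Without heater well 3 the ERRFI1 value was 0.61. Without well 2 it was 1.33, and over all single omissions DUSP5 ranged from 2.01 to 2.69. In rank by size of rise, DUSP5 was 23 and ERRFI1 225 of 8531.

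In the other exposures at 24 h ERRFI1 was at 13.6, 13.0 and 14.45 FPKM in charcoal wells, 12.05, 12.35 and 11.5 FPKM in herbal wells and 15.0, 12.2 and 12.3 FPKM in tobacco wells. The herbal wells were below every control well at this time, whereas charcoal and tobacco wells overlapped the controls. The log2 changes were -0.21, -0.38 and -0.26 (SE 0.26 each). DUSP5 was at 3.58, 3.16 and 3.68 FPKM in charcoal wells, 3.08, 3.13 and 3.45 FPKM in herbal wells and 5.87, 3.98 and 4.06 FPKM in tobacco wells, with log2 changes of 0.01, -0.08 and 0.33 (SE 0.21 each). For DUSP5 the tobacco wells lay above all control wells and the other exposures overlapped them. Wells apart from control were common at 24 h, at 15.6% of tested genes for lower herbal wells and 31.2% for higher tobacco wells.

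The 10 group means of ERRFI1 had the order herbal 2 h (140.3 ± 5.125 FPKM), charcoal 2 h (122 ± 8.36), tobacco 2 h (112 ± 12.9), heater 2 h (62.6 ± 33.3), heater 24 h (34.7 ± 16.9), control 24 h (16.0 ± 1.60), charcoal 24 h (13.7 ± 0.714), control 2 h (13.2 ± 0.6475), tobacco 24 h (13.2 ± 1.60) and herbal 24 h (11.97 ± 0.425; SD, n = 3 in each group). Between neighbours in this order, wells were apart only at herbal against charcoal at 2 h and at heater against control at 24 h. All other neighbours overlapped, the heater at 2 h and at 24 h among them.

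For DUSP5 the order was heater 2 h (96.9 ± 19.2 FPKM), herbal 2 h (68.0 ± 0.7595), tobacco 2 h (67.2 ± 7.36), charcoal 2 h (45.0 ± 3.63), heater 24 h (22.9 ± 10.5), control 2 h (5.785 ± 0.380), tobacco 24 h (4.64 ± 1.07), charcoal 24 h (3.47 ± 0.277), control 24 h (3.465 ± 0.522) and herbal 24 h (3.22 ± 0.198; SD, n = 3 in each group). Herbal and tobacco at 2 h overlapped, as did control 2 h and tobacco 24 h, and charcoal, control and herbal at 24 h. The control wells themselves differed with time, since at 24 h against 2 h ERRFI1 was higher in all wells (log2 difference 0.25) and DUSP5 lower in all wells (-0.61). Of all tested genes, 20.8% had all 24 h control wells higher and 23.9% all lower.

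Neighbouring exposures at 2 h separated the genes further. Herbal shisha on charcoal against charcoal alone gave a log2 difference of 0.20 for ERRFI1 and 0.59 for DUSP5, with herbal wells above charcoal wells in both, as in 22.5% of tested genes. Tobacco against herbal shisha, both on charcoal, gave -0.32 for ERRFI1, with every tobacco well below every herbal well as in 12.6% of genes, and -0.02 for DUSP5, with overlapping wells. For tobacco on the heater against tobacco on charcoal the values were -0.95 for ERRFI1, with overlapping wells, and 0.51 for DUSP5, with all heater wells higher as in 20.4% of genes. SEs were 0.26 for ERRFI1 and 0.21 for DUSP5. These comparisons share groups with each other and with the comparisons against control, so they are not separate evidence.

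The ratio of DUSP5 to ERRFI1 within a well compares the transcript levels of both genes. These data hold no protein levels or kinase activity. At 2 h it was 0.368 ± 0.00523 in charcoal wells, 0.485 ± 0.0149 in herbal wells, 0.605 ± 0.108 in tobacco wells and 1.73 ± 0.519 in heater wells, against 0.4375 ± 0.00991 in control wells (SD, n = 3). Only in heater wells at 2 h did DUSP5 exceed ERRFI1, with ratios of 1.13, 2.07 and 1.98. At 24 h the ratio was 0.664 ± 0.0246 in heater wells, against 0.216 ± 0.0119 in control wells, and its spread was small although both genes varied widely among those heater wells. The charcoal, herbal and tobacco wells had ratios of 0.253 ± 0.0106, 0.2695 ± 0.0259 and 0.349 ± 0.0362 at that time. In 7 of the 10 groups the 3 wells had the same order in both genes. The order of DUSP5 held for 17.3% of all tested genes in heater wells at 2 h and for 20.3% at 24 h. For the other groups that share was not computed, so nothing is read from the count.

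**Figure D2:**
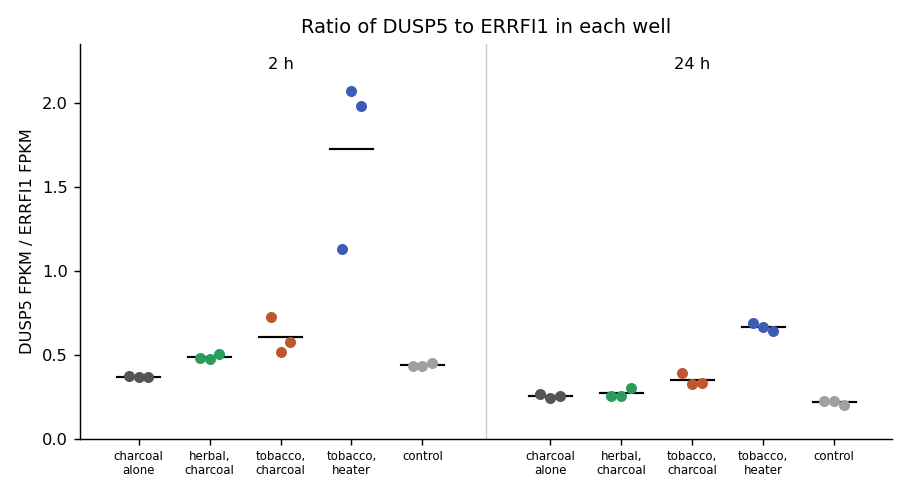
DUSP5 FPKM divided by ERRFI1 FPKM in each well, with 1 point per well and a bar at the mean of 3 wells, exposures left of their control at each time. The heater wells are highest at both times, at 1.13 to 2.07 at 2 h and 0.639 to 0.688 at 24 h.

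Other genes of the EGFR and ERK pathway were taken from 6 lists with 71 genes in all. The lists were chosen with earlier results of these data known, so counts and p-values of their genes are not independent support. Of these, 41 were tested, 15 were below the filter and 15 were not analysed here. They were tested with limma on log2(FPKM + 1), adjusted by Benjamini-Hochberg over the 8531 genes, with 0.05 as the limit of the adjusted p for a call. At 2 h, 17 of the 41 rose and 4 fell after charcoal alone, 17 rose and 13 fell after herbal shisha, 18 rose and 10 fell after tobacco shisha on charcoal, and 13 rose and 13 fell on the heater. Among all tested genes the shares that rose were 8.16%, 10.6%, 8.5% and 9.27% in that order, and the shares that fell 16.2%, 27.7%, 26.7% and 24.8%. The median log2 change over the 41 genes was 0.07, 0.08, 0.12 and -0.0019, beside -0.08, -0.07, -0.08 and -0.04 over all tested genes. With median-of-ratios scaling there were fewer falls after herbal shisha (18 higher and 8 lower) and tobacco shisha on charcoal (18 and 5), while the counts after charcoal alone (17 and 3) and on the heater (14 and 12) moved by 1 or less in each direction. Over all genes that scaling gave 976 higher and 666 lower after charcoal alone, in place of 696 and 1385. It gave 1787 and 1497 in place of 901 and 2359 after herbal shisha, 1657 and 1378 in place of 725 and 2276 after tobacco shisha on charcoal, and 1585 and 1584 in place of 791 and 2112 on the heater. Summed fibroblast markers ran from 266 to 302 FPKM in exposed wells at 2 h, against 323 to 326 FPKM in control wells, with DCN listed at 0 throughout, and their part in these counts was not tested.

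Of the ligands only HBEGF, a membrane-anchored growth factor that is cut loose to bind EGFR, passed the filter. It had 113, 109 and 104 FPKM in charcoal wells, 123, 128 and 115.5 in herbal wells, 108, 109 and 99.96 in tobacco wells and 106.5, 98.9 and 54.8 in heater wells at 2 h, against 18.8, 18.2 and 18.6 FPKM in control wells. All exposed wells were above control, and heater well 3 was the lowest of them. HBEGF rose with log2 changes of 2.49, 2.65, 2.45 and 2.11 (SE 0.22 each; limma adjusted p from 3.23e-09 to 1.29e-07). The ligands AREG, EREG and TGFA had group means of at most 0.584, 0.656 and 0.542 FPKM and were not tested.

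Receptors and adaptors went the other way or did not pass the test. Of 7 tested, 0 were higher in limma after any exposure at 2 h, and 0 also at an unadjusted p below 0.05. Of all tested genes 8.16% to 10.6% were called higher and 16.2% to 27.7% lower. EGFR itself was at 9.65, 9.945 and 6.89 FPKM in heater wells, against 11.7, 11.9 and 11.55 FPKM in control wells, and fell there with a log2 change of -0.39 (SE 0.10; limma adjusted p = 0.00376, but 0.0609 in a fit on those groups alone). After charcoal alone, herbal shisha and tobacco shisha on charcoal its log2 changes were 0.10, -0.22 and -0.24 and did not pass the test (adjusted p = 0.498, 0.078 and 0.0633). In the fit on those groups alone the falls after herbal shisha and tobacco shisha on charcoal did pass (limma adjusted p = 0.0096 and 0.00589). With median-of-ratios scaling both were smaller, at -0.12 and -0.13, and did not pass (limma adjusted p = 0.343 and 0.325). The fall on the heater passed with that scaling (-0.32; limma adjusted p = 0.0141). Which falls of EGFR passed thus depended on the fit. ERBB2, its relative and partner, fell after herbal shisha (-0.31; limma adjusted p = 0.000866) and after tobacco shisha on charcoal (-0.24; limma adjusted p = 0.00769), the second of which was lost with median-of-ratios scaling (0.137). SOS1, which loads RAS with GTP, fell by 0.59 after herbal shisha, 0.40 after tobacco shisha on charcoal and 0.56 on the heater on the log2 scale. SOS2, its close relative, fell after all 4 exposures (log2 changes of -0.25 to -0.37), as did GAB1, a docking protein for the receptors (-0.30 to -0.36). PTPN11, a phosphatase that helps to activate RAS, fell on the heater (-0.32; limma adjusted p = 4.65e-05). Of the relatives of EGFR, ERBB3 had a highest group mean of 0.785 FPKM and ERBB4 was listed at 0, so neither was tested. ARAF, a kinase near the top of the chain, fell after herbal shisha (-0.24; limma adjusted p = 0.00109), a call lost with median-of-ratios scaling (0.0509). NRAS, a RAS gene, was higher after tobacco shisha on charcoal (0.13; limma adjusted p = 0.0248), a call lost without control well 3 (0.13), tobacco well 1 (0.0504) or tobacco well 3 (0.0883).

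Most other MAP kinase phosphatases tested rose with DUSP5 at 2 h. Of 6 tested, 5 rose after each of the charcoal exposures and 4 on the heater, beside 8.16% to 10.6% of all tested genes. In limma 0 of the 6 were lower, and 0 also at an unadjusted p below 0.05. The median log2 change over the 6 was 0.69, 0.47, 0.55 and 0.83 in the order of the exposures. DUSP1, a nuclear phosphatase of ERK, p38 and JNK, was at 127, 109.9 and 99.4 FPKM in charcoal wells, 131, 163 and 148 in herbal wells, 205, 185 and 188 in tobacco wells and 576, 529 and 474 in heater wells, against 20.1, 19.7 and 22.3 FPKM in control wells. As in DUSP5 the heater wells were the highest, and all of them lay above every well exposed to charcoal smoke. DUSP1 rose with log2 changes of 2.38, 2.77, 3.16 and 4.60 (SE 0.18 each; limma adjusted p from 2.83e-15 to 8.02e-10). Between tobacco on the heater and tobacco on charcoal the difference was 1.44 for DUSP1 (limma adjusted p = 4.96e-06) and 1.23 for DUSP6 (2.42e-05).

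DUSP6, a cytoplasmic phosphatase specific for ERK, was lower in level, at 11.3 ± 0.620 FPKM in heater wells against 1.11 ± 0.0273 FPKM in control wells (SD, n = 3). Its log2 changes were 1.31, 1.86, 1.31 and 2.54 in the order of the exposures (SE 0.17 each). DUSP4, a nuclear relative, rose by 0.73, 0.44, 0.73 and 1.03 on the log2 scale, and DUSP10, which acts on p38 and JNK, by 0.62, 0.34, 0.30 and 0.62. The DUSP10 call after tobacco shisha on charcoal, counted above, was lost with no filter (limma adjusted p = 0.0647) and in the fit on those groups alone (0.0606). It was also lost without tobacco well 1 or 3 or control well 1 or 2 (0.0831 to 0.153). The DUSP10 call after herbal shisha was lost without herbal well 3 or control well 1 or 2 (0.0628 to 0.0924). DUSP7, a cytoplasmic ERK phosphatase, had its smallest change on the heater, with log2 changes of 0.64, 0.50 and 0.37 after the charcoal exposures and 0.11 on the heater, the last of which did not pass the test (limma adjusted p = 0.241). For tobacco on the heater against tobacco on charcoal DUSP7 fell by 0.26 on the log2 scale (limma adjusted p = 0.00919).

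SPRY4, which blocks RAS activation below the receptors, had the same order of exposure means as ERRFI1, herbal, charcoal, tobacco, then heater. It had 20.25, 18.4 and 17.9 FPKM in charcoal wells, 20.9, 21.2 and 18.8 in herbal wells, 18.3, 18.6 and 18.3 in tobacco wells and 17.25, 17.3 and 10.3 in heater wells, against 2.41, 2.53 and 2.66 FPKM in control wells. Log2 changes were 2.49, 2.59, 2.46 and 2.14 (SE 0.18 each; limma adjusted p from 2.63e-10 to 4.62e-09). Other inhibitors in the list of 10 tested went either way. Counting SPRY4, 3 rose and 1 fell after charcoal alone, and 2 rose and 3 fell after herbal shisha. After tobacco shisha on charcoal 3 rose and 3 fell, and on the heater 1 rose and 5 fell. Of all tested genes 8.16%, 10.6%, 8.5% and 9.27% rose in the order of the exposures, and 16.2%, 27.7%, 26.7% and 24.8% fell. SOCS5, a receptor inhibitor, rose after the charcoal exposures (log2 changes of 0.52, 0.29 and 0.42; limma adjusted p from 2.02e-07 to 0.000349). On the heater SOCS5 fell by 0.18 (limma adjusted p = 0.0187), a call lost with median-of-ratios scaling (0.141), without control well 1 (0.0671) or heater well 3 (0.103), and in the fit on those groups alone (0.0526). LRIG3 fell after all 4 exposures at 2 h (log2 changes of -0.92, -0.92, -1.21 and -0.66), and CBL, a ligase that marks EGFR for destruction, fell by 0.33, 0.28 and 0.61 after herbal shisha, tobacco shisha on charcoal and the heater. The fall of CBL after tobacco shisha on charcoal was lost with median-of-ratios scaling (limma adjusted p = 0.133) and without tobacco well 2 (0.0609). SPRED2, a further RAS brake, rose after charcoal alone (0.38) and tobacco shisha on charcoal (0.26) and fell on the heater (-0.47). Its rise after tobacco shisha on charcoal was lost with no filter (limma adjusted p = 0.055). The same rise was lost without tobacco well 1 or 2 or control well 1 or 2 (0.0757 to 0.116).

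Of 11 transcripts known to follow ERK activity, 8 rose after charcoal alone and 9 after herbal shisha at 2 h. After tobacco shisha on charcoal 8 rose, and on the heater 7. Among all tested genes 8.16%, 10.6%, 8.5% and 9.27% rose in that order. The gene that fell was EPHA4, a receptor of ephrins, lower by -0.34 after both herbal shisha and tobacco shisha on charcoal (limma adjusted p = 0.00325 and 0.00334). FOS, EGR2 and EGR3 were below 1 FPKM in control wells and passed the filter only through exposed wells, so they could hardly be called anything but higher, and they are 3 of the genes counted as rising after each exposure. JUNB, a subunit of AP-1, rose by 2.70, 2.93, 3.02 and 3.58 in the order of the exposures (SE 0.12 each; limma adjusted p from 1.49e-16 to 1.89e-13). IER2, an immediate early gene, had log2 changes of 1.17, 1.51, 1.60 and 3.66. EGR1, a transcription factor of the immediate early class, had log2 changes of 2.06, 3.37, 3.09 and 6.96 (SE 0.22 each) and FOS, a subunit of AP-1, had 1.45, 2.76, 1.82 and 7.10 (SE 0.29 each). For tobacco on the heater against tobacco on charcoal the log2 differences were 3.87 for EGR1 (limma adjusted p = 1.27e-11) and 5.28 for FOS (limma adjusted p = 1.19e-11), beside 0.51 for DUSP5. CCND1, cyclin D1, was like ERRFI1 lowest on the heater among the exposures, with rises of 1.49, 1.01 and 1.21 after the charcoal exposures and 0.17 on the heater, which did not pass the test (adjusted p = 0.599). On the heater against tobacco on charcoal CCND1 fell by 1.04 on the log2 scale (limma adjusted p = 0.00137). PHLDA1 rose by 1.09, 0.95, 0.89 and 0.96 in the order of the exposures.

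**Figure D3:**
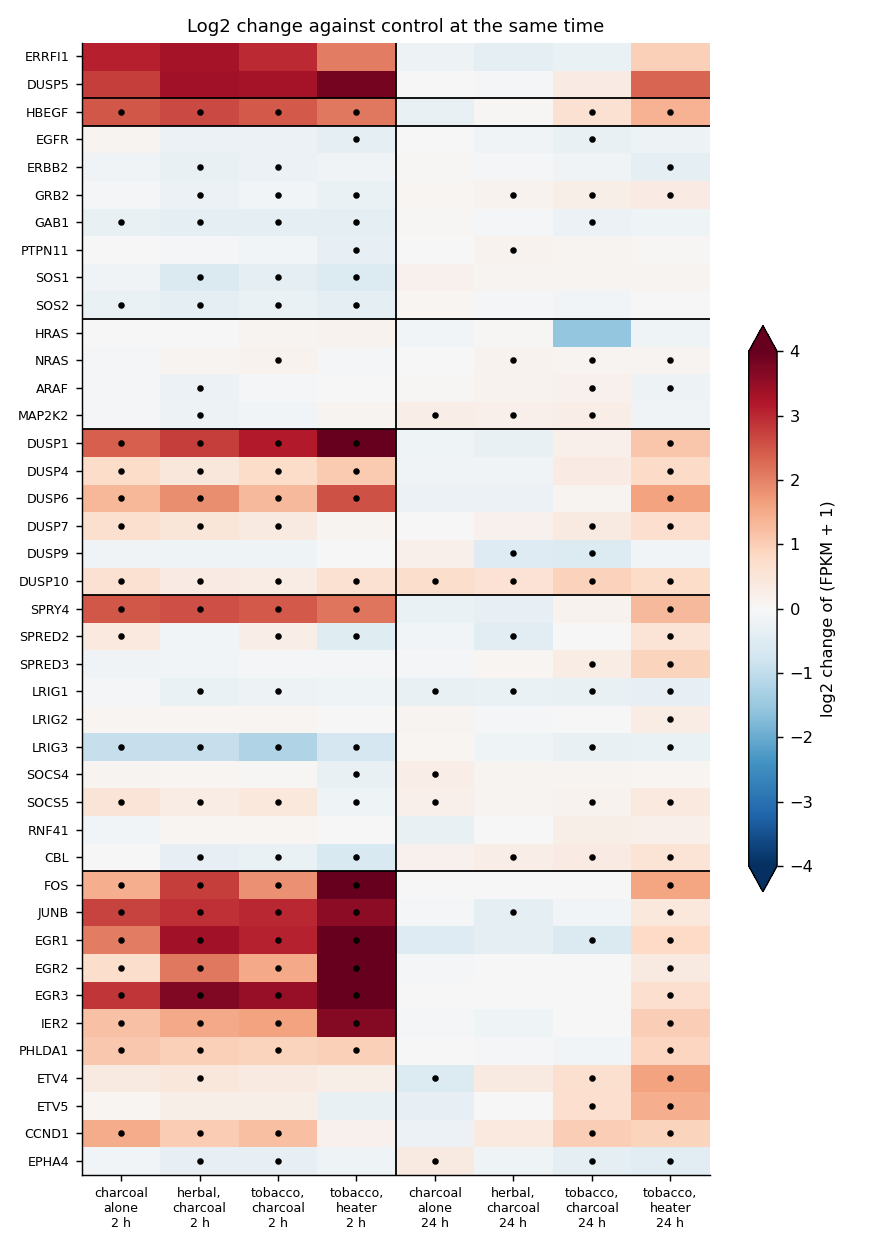
Log2 change of log2(FPKM + 1) against control at the same time for ERRFI1 and DUSP5 (top, no test) and all but 2 of the 41 tested pathway genes in 6 lists divided by lines; dots mark genes called by limma, and colours stop at 4 in either direction, which EGR1, EGR2, EGR3, FOS and DUSP1 exceed on the heater at 2 h. At 24 h the red of HBEGF, DUSP1, DUSP6, SPRY4 and FOS is seen in the heater column.

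Between exposures at 2 h, herbal shisha on charcoal against charcoal alone called 16 of the 41 pathway genes, 7 higher (10.1% of all genes) and 9 lower (14.3%). DUSP6, FOS, EGR1, EGR2 and EGR3 were among those higher, of which EGR2 was below 1 FPKM in charcoal wells. The 16 calls became 9 without charcoal well 1 and 10 without herbal well 3. Tobacco against herbal shisha on charcoal called 0 of 41 with limma, where 12 had an unadjusted p below 0.05, and 1 was called with a replicate block, with a pseudocount of 0.1 or without tobacco well 1. The share called over all genes was 0.61%. Tobacco on the heater against tobacco on charcoal called 11 higher (12.7% of all genes) and 12 lower (10.6%). The median over the 41 genes was -0.03, beside 0.04 over all tested genes, on the log2 scale. With median-of-ratios scaling the all-gene calls of that comparison were 808 higher and 1158 lower, in place of 1084 and 907.

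At 24 h the pathway genes were called in small numbers after charcoal alone and in large numbers on the heater. Calls over all tested genes differed in the same way, with 9.87% and 63.8% called in either direction. After charcoal alone 5 of 41 rose and 2 fell, where 6.05% and 3.82% of all genes did. The herbal wells had 6 higher and 4 lower (16.5% and 10.4% of all genes), or 3 higher and 4 lower with median-of-ratios scaling. In the tobacco wells 14 were higher and 7 lower (25.9% and 18.6%). On the heater 24 were higher and 5 lower (34.3% and 29.5%), with a median log2 change of 0.35 over the 41 genes beside 0.03 over all tested genes. The 7 calls for charcoal alone became 2 without control well 3, and 4 without control well 1, control well 2, charcoal well 2 or charcoal well 3. The 10 calls for herbal shisha became 4 without control well 2 or herbal well 3, and 5 without control well 1 or herbal well 2. For charcoal alone the all-gene split was 397 higher and 435 lower with median-of-ratios scaling, in place of 516 and 326.

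On the heater at 24 h the genes that were higher included the ligand, the phosphatases and the ERK-responsive transcripts that had risen at 2 h. HBEGF had 39.8, 23.3 and 53.5 FPKM in heater wells, against 15.0, 14.5 and 11.1 FPKM in control wells, and rose with a log2 change of 1.39 (SE 0.22; limma adjusted p = 9.41e-06). DUSP1 had 52.9, 34.4 and 66.4 FPKM in heater wells, against 26.1, 25.3 and 16.7 FPKM in control wells (log2 change 1.12, SE 0.18; limma adjusted p = 8.7e-06). SPRY4 had 5.29, 2.95 and 6.44 FPKM in heater wells, against 1.19, 1.62 and 1.13 FPKM in control wells (1.305, SE 0.18; limma adjusted p = 1.45e-06). In each of these the heater wells were ordered as in DUSP5, well 3 highest and well 2 lowest. That order held for 19 of the 41 pathway genes and for 20.3% of all tested genes. At 2 h the order of DUSP5, well 1 highest and well 3 lowest, held for 11 of 41 and for 17.3% of all tested genes.

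DUSP6 rose by 1.60 on the heater at 24 h (limma adjusted p = 3.8e-08), DUSP4 by 0.77 and DUSP7 by 0.68 on the log2 scale. With DUSP1 and DUSP10, 5 of 6 phosphatases were higher, where 34.3% of all tested genes were. DUSP9, the sixth phosphatase, did not pass the test on the heater (-0.11, adjusted p = 0.404), but fell at 24 h after herbal shisha (-0.50; limma adjusted p = 0.00288) and tobacco shisha on charcoal (-0.54; limma adjusted p = 0.000737). Of the 11 ERK-responsive transcripts 10 were higher on the heater and EPHA4 was lower (-0.43; limma adjusted p = 0.00015), beside 34.3% higher and 29.5% lower over all tested genes. The rise of EGR2 (0.35) was lost without heater well 3 (limma adjusted p = 0.374) and without any 1 control well (0.0631 to 0.0948). It was also lost with no filter (0.0666), with a replicate block (0.0579) and in the fit on those groups alone (0.14). That fit also lost the rises of EGR3 (0.0545) and EGR1 (0.0675), and EGR3 was lost without heater well 3 (0.0579). EPHA4 also fell at 24 h after tobacco shisha on charcoal (-0.39) and rose after charcoal alone (0.37). SPRED3, a RAS brake, rose by 0.90 and IER2 by 0.97 on the heater, while ERBB2 fell by 0.36 on the log2 scale. Of the genes called higher on the heater, 5 were below 1 FPKM in control wells at 24 h (DUSP6, SPRED3, FOS, EGR2 and EGR3) and could hardly be called lower. ETV4 and ETV5, transcription factors of the PEA3 group, had not passed the test on the heater at 2 h (log2 changes of 0.22 and -0.30, adjusted p = 0.35 and 0.195), but at 24 h rose by 1.61 and 1.46 (limma adjusted p = 3.12e-08 and 1.52e-07). SOCS4, a relative of SOCS5, rose after charcoal alone at 24 h (0.26; limma adjusted p = 0.0266), a call lost without control well 1 or 3 or charcoal well 2 or 3 (0.0662 to 0.115). PTPN11 rose after herbal shisha at 24 h (0.15; limma adjusted p = 0.0387), a call lost without any 1 of the 6 wells (0.0501 to 0.137) and with median-of-ratios scaling (0.0925). LRIG1, which lowers ERBB receptor levels, fell after all 4 exposures at 24 h (log2 changes of -0.31, -0.27, -0.29 and -0.34), and the adjusted p for charcoal alone was 0.0613 to 0.0954 without control well 2, control well 3 or charcoal well 2. For herbal shisha it was 0.0609 to 0.115 without control well 2 or 3 or herbal well 2 or 3. Summed fibroblast markers were at 132 to 149.7 FPKM in these heater wells, against 289 to 305 FPKM in control wells at 24 h, with DCN listed at 0, and summed keratins and epithelial markers at 768 to 829 FPKM, against 867 to 1030.0 FPKM in control wells. Their part in these results was not tested.

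In tobacco wells on charcoal at 24 h HBEGF was higher by 0.61 on the log2 scale (limma adjusted p = 0.0288), a call lost without control well 3 (adjusted p = 0.123), without tobacco well 1 (0.136) or with no filter (0.0523). EGFR was lower there by -0.28 (limma adjusted p = 0.0234), which was lost without tobacco well 2 (adjusted p = 0.131), control well 1 (0.0503) or control well 2 (0.0598). DUSP10 was higher at 24 h after all 4 exposures, with log2 changes of 0.72, 0.57, 0.92 and 0.73. HRAS was listed at 0 in 1 tobacco well at 24 h, beside 28.5 and 29.4 FPKM in the others, and gets no reading.

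The difference between an exposure's effects at 24 h and at 2 h was tested as an interaction term. After charcoal alone 24 of 41 pathway genes had different effects, 7 higher at 24 h and 17 lower (16.2% and 7% of all genes). For herbal shisha the numbers were 10 and 13 (24% and 8.3%), for tobacco burnt on charcoal 11 and 12 (30.3% and 10.8%), and on the heater 18 and 12 (34.8% and 22.8%). With median-of-ratios scaling the pathway splits were 3 and 18, 6 and 15, and 5 and 16 for the charcoal exposures, and the all-gene splits 667 and 928, 976 and 1204, and 1350 and 1526, in place of 1382 and 597, 2048 and 708, and 2582 and 920. DUSP1 had the smaller effect at 24 h after every exposure, by -2.54, -3.07, -2.97 and -3.48 on the log2 scale. HBEGF fell short of the test on the heater (-0.72, adjusted p = 0.0542), whereas after charcoal alone its difference was -2.78 (limma adjusted p = 9.61e-07). The control wells moved with time as well, with 1 of 41 pathway genes higher at 24 h than at 2 h (7.44% of all genes) and 9 lower (9.44%), DUSP4, DUSP7, DUSP10 and SPRY4 among them. These 10 calls became 5 or 6 without control well 1 or 3 of either time.

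The genes with the pattern most like each brake were sought among all tested genes, by Pearson correlation of log2(FPKM + 1) over the 10 group means. This is a description, since the groups share the cell line, the controls and the 2 h response. For ERRFI1 they were G0S2 (r = 0.995), an inhibitor of a fat-droplet lipase, EFNB2 (0.992), a membrane ligand of EPH receptors, DLX3 (0.986), a homeobox factor, CD274 (0.980), the immune checkpoint ligand PD-L1, and EMP1 (0.980), a membrane protein. For DUSP5 they were SIK1 (0.9945), a salt-inducible kinase, TRIB1 (0.993), a pseudokinase, CYTH2 (0.992), an exchange factor for ARF GTPases, PPP1R15A (0.990), a phosphatase subunit of the stress response, and LURAP1L (0.988). DUSP5 stood only at rank 77 among the genes most like ERRFI1 (r = 0.931), and ERRFI1 at rank 70 for DUSP5.

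The 2 sets parted at the heater, which follows from choosing them by likeness over the same groups, so the values are given as a description. At 2 h EFNB2 was at 13.0 ± 4.53 FPKM in heater wells, 23.2 ± 1.24 in charcoal wells and 5.85 ± 0.279 in control wells, and CD274 at 9.25 ± 4.16, 14.9 ± 0.817 and 2.23 ± 0.181 FPKM (SD, n = 3). PPP1R15A had 189 ± 50.0 FPKM in heater wells, 77.8 ± 7.57 in charcoal wells and 28.7 ± 0.661 in control wells. SIK1 had 18.7 ± 6.46, 10.02 ± 0.190 and 3.90 ± 0.180 FPKM in the same groups. At 24 h SIK1 was at 7.36 ± 2.56 FPKM in heater wells, against 2.83 ± 0.283 in control wells. CYTH2 followed DUSP5 over a small range, at 15.3 ± 2.40 FPKM in heater wells at 2 h, against 10.9 ± 0.853 FPKM in control wells. Of the 5 genes named for each brake, 4 were again among the first 5 with a pseudocount of 0.1 or median-of-ratios scaling, and over 30 wells in place of group means 4 were for ERRFI1 and 3 for DUSP5.

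**Figure D4:**
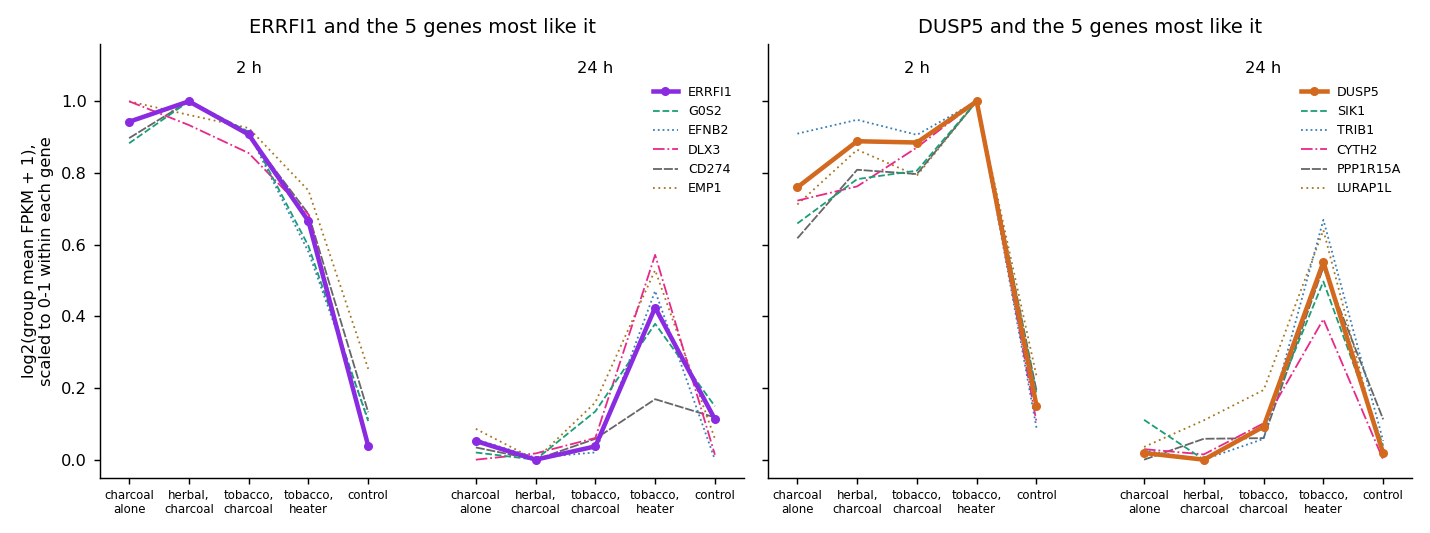
Group means of ERRFI1 (left) and DUSP5 (right) with the 5 genes most like each, as log2(mean FPKM + 1) scaled from 0 to 1 within each gene, exposures left of their control at 2 h and at 24 h; lines join groups only to guide the eye. On the left the heater at 2 h is the lowest of the exposures, and on the right it is the highest.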

How the data were processed

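Libraries were made from total RNA with an Illumina TruSeq kit and read as 50 bp single reads, per the labels. The submitters' processing notes name HISAT2 2.1.0, StringTie 1.3.4d and the hg38 build. The authors deposited FPKM values per transcript name in each of 30 libraries, with 29190 rows and 22542 names, per the file headers. Which annotation release and strand setting were used, and any filter, is not given in the sources used here. No counts are in the files, so depth is unknown and no counting intervals are given. FPKM is a share of each library, so a large change in some genes shifts the others. Of repeated names the row with the highest mean was kept; 27 names read as dates were kept under their accession.

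Values were taken as log2(FPKM + 1), and the 8531 genes at or above 1 FPKM in 3 or more libraries went into limma 3.58.1 (trend, R 4.3.3), which fitted a mean for each group over 30 libraries (20 residual degrees of freedom, prior 2.76). P-values were adjusted by Benjamini-Hochberg over those genes, and 0.05 was the limit for a call. The code was tested on simulated data. Tables used pandas 2.3.3 and numpy 2.4.6 on Python 3.11.15, and plots matplotlib 3.10.9.

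Pathway genes named in the text were, for each exposure and time, the 2 called genes with the lowest p in every list, and always EGFR, HBEGF, AREG, EREG, DUSP1, DUSP4, DUSP6, SPRY4, LRIG1, EGR1 and FOS; others (TGFA, ERBB3, ERBB4, HRAS, PHLDA1, ETV5, SOCS5 and genes named for a shared list) were added after their values were seen. ERRFI1, DUSP5 and the lists were chosen with earlier results of these data known. Alternatives were a replicate block, no filter, a pseudocount of 0.1, median-of-ratios scaling, only the groups compared, the sum of all rows of a name, and leaving out each well in turn. Sequences came from RefSeq (GRCh38.p14) and GENCODE 29 (GRCh38). Values of 2 pathway genes are not reported here.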

Additional observations from a re-analysis of the deposited data

Results flagged for a closer look

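The effect of an exposure differed between 24 h and 2 h, by an interaction test in limma, for 24 of the 41 pathway genes after charcoal alone, 23 after herbal shisha on charcoal, 23 after tobacco shisha on charcoal and 30 on the heater. Some were called in opposite directions at the 2 times, and the values that follow are the effect at 24 h minus that at 2 h on the log2 scale. After herbal shisha these were GRB2, an adaptor of EGFR (0.38), MAP2K2, the kinase of ERK (0.43), CBL (0.60) and JUNB, a subunit of AP-1 (-3.29). After tobacco shisha on charcoal they were GRB2 (0.35), CBL (0.60) and EGR1 (-3.65), and on the heater GRB2 (0.61), SPRED2 (1.03), SOCS5, a receptor inhibitor (0.57), and CBL (1.14). GRB2 and CBL were thus called lower at 2 h and higher at 24 h in each of these 3 exposures. After tobacco shisha on charcoal both falls at 2 h were lost with median-of-ratios scaling (limma adjusted p = 0.979 for GRB2 and 0.133 for CBL). The fall of GRB2 was also lost without tobacco well 1 (0.0677), and that of CBL without tobacco well 2 (0.0609). The rise of CBL in herbal wells at 24 h was lost without herbal well 1 or 3 or control well 1 or 2 (0.0625 to 0.068). The fall of SOCS5 on the heater at 2 h was lost with median-of-ratios scaling (0.141). The fall of JUNB in herbal wells at 24 h (-0.35) was lost without filter (limma adjusted p = 0.056) and without any of 5 wells. The fall of EGR1 in tobacco wells at 24 h (-0.57) was lost with a replicate block (0.0539) and without any of 4 wells. The rise of MAP2K2 in herbal wells at 24 h (0.21) was lost with median-of-ratios scaling (adjusted p = 0.0514) and without any of 5 wells. The fall of MAP2K2 in herbal wells at 2 h (-0.21) was lost with the same scaling (limma adjusted p = 0.261). That fall was also lost without herbal well 1 or 3 or control well 1 or 3 (0.0557 to 0.0695). The rise of GRB2 in herbal wells at 24 h (0.15) was lost in a fit on those groups alone (0.0595).

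In ERRFI1 every herbal well lay above the control wells at 2 h and every one below them at 24 h, where the log2 change was -0.38. The difference between the 2 times was not tested.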

How the results depend on the processing

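The log2 changes of ERRFI1 and DUSP5 kept their direction under the settings tried where wells were apart. Without single wells ERRFI1 on the heater at 2 h ranged from 1.64 to 2.32. For ERRFI1 at 2 h they were 3.20 after charcoal alone and 3.42 after herbal shisha with median-of-ratios scaling, and 3.40 after herbal shisha with a pseudocount of 0.1. For DUSP5 a pseudocount of 0.1 gave 2.94, 3.53 and 3.51 after charcoal alone, herbal shisha and tobacco shisha on charcoal, and the scaling gave 3.45 after herbal shisha. A fit on the groups compared alone called 6 pathway genes and 1465 genes in all for herbal shisha at 24 h, where the fit over 30 libraries called 10 and 2289. It called 14 and 569 for the heater against charcoal with tobacco at 2 h (23 and 1991 over 30 libraries), 7 genes in all for tobacco against herbal shisha (52), and 16 pathway genes for control at 24 h against 2 h (10). Fewer samples set the spread in that fit. Leaving out single wells, pathway calls ranged from 2 to 5 and all calls from 511 to 602 for charcoal alone at 24 h (7 and 842), from 4 to 11 and 1420 to 2317 for herbal shisha at 24 h, from 9 to 13 and 1364 to 1807 for herbal shisha against charcoal alone (16 and 2083), from 0 to 1 and 4 to 57 for tobacco against herbal shisha, and from 5 to 7 and 885 to 1071 for control over time (10 and 1440). For the heater against charcoal with tobacco all calls ranged from 1237 to 1991. The causes were not tested.

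The labels do not say whether wells of the same replicate number belong together. Same-numbered wells of different groups had correlations of their deviations from -0.107 to 0.2305, with 6 of 60 over 0.1, and 23 of 30 wells correlated best with their own number, which is a hint from the data and not the design. With a replicate block, pathway calls were 21, 30, 27 and 26 at 2 h and 7, 9, 19 and 28 at 24 h in the order of the exposures, in place of 21, 30, 28 and 26 and of 7, 10, 21 and 29, and 1 in place of 0 for tobacco against herbal shisha. The number of reads behind each value is unknown, so the depth that limits low genes such as DUSP6 or LRIG3 cannot be given. With 3 wells per group the spread of single groups, the heater wells above all, is poorly known.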

Other observations

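In tobacco wells on charcoal at 24 h, well 1 stood above the others in DUSP5 (5.87, against 3.98 and 4.06 FPKM in wells 2 and 3) and in other genes of the pathway, a pattern picked after the values were seen. ETV5 had 16.3 FPKM in well 1, and 6.84 and 8.255 FPKM in wells 2 and 3. CCND1 had 43.9, 20.65 and 25.7 FPKM in wells 1, 2 and 3, and ETV4 had 4.40, 1.85 and 2.27 FPKM. Well 1 was the highest of the 3 in 26 of the 41 tested pathway genes and in 40.4% of all tested genes.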
